A study of Mus musculus with 2 samples.

Results

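Chromatin accessibility was examined around 10 genes that encode transcription factors of excitatory neurons, out of 21755 protein-coding genes outside the Y chromosome. They were taken by name: Neurod1, Neurod2, Neurod6, Bhlhe22, Neurog2, Eomes, Tbr1, Emx1, Fezf2 and Bcl11b. The data were DNase-seq of mouse tissue that the labels call a layer of the hippocampus. DNase-seq cuts nuclear DNA with DNase I, so that stretches free of nucleosomes collect cuts and stand out as peaks, and short protected gaps inside them are called as footprints of bound proteins. The series held 1 group of 2 libraries, replicate 1 and replicate 2, both from B6CASTF1/J animals labelled male and 25 days old. B6CASTF1/J mice are first-generation hybrids of the strains C57BL/6J and CAST/EiJ, so both parental genomes were present in every nucleus while positions and sequences below are those of the reference. No treatment, mutation or cell sorting is given in the labels. The labels number the libraries as biological replicates but list the same donor entry for both, so the spread between them may be partly technical.

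Excitatory neurons of the cortex and hippocampus are made in the embryo by a cascade of transcription factors. The proneural basic helix-loop-helix (bHLH) factor Neurog2 acts in dividing progenitors, the T-box factor Eomes in intermediate progenitors, and Neurod1 and Tbr1 in young neurons, while Neurod2, Neurod6 and Bhlhe22 continue in maturing and mature neurons. In the hippocampus this sequence goes on after birth in the dentate gyrus, where new granule neurons are formed. Emx1 is a homeodomain factor of the dorsal telencephalon, and the zinc finger factors Fezf2 and Bcl11b are best known from deep-layer cortical neurons, with Bcl11b also present in hippocampal neurons. NeuroD and Neurogenin proteins pair with E-proteins and bind E-boxes.

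For each gene the window was the annotated gene body with 50 kb on each side. A promoter peak overlapped the stretch within 1 kb of an annotated transcription start site (TSS) of that gene, and a peak counted as distal if it met no such stretch of any protein-coding gene. Peaks of the libraries were called shared where they overlapped by at least 1 bp. The peak value is the authors' signal, a coverage-like height of unstated scale, and the number of DNase cuts behind it is unknown. Positions in kb are counted from the first TSS of the gene in the direction of transcription, so that negative positions lie upstream. In bulk tissue, an element open in fewer cells and an element less open in each cell cannot be told apart.

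Replicate 1 had 93545 peaks and 223251 footprints, and replicate 2 had 79144 peaks and 170016 footprints. Bases with an FDR under 0.05, the limit of the deposited files, covered 34.8 Mb in replicate 1 and 27.7 Mb in replicate 2. One library went against its sex label. Replicate 1 had promoter peaks at the Y-linked genes Ddx3y, Eif2s3y, Kdm5d and Uty, with values between 0.424 and 0.890, and none at Xist. The library labelled male replicate 2 had none at those Y-linked genes and 3 at Xist, the strongest at 1.01. Over the whole Y chromosome, however, the peaks numbered 40 in replicate 1 and 39 in replicate 2. Their origin was not tested. All 10 genes lie on autosomes. Peak values and counts below are given for each library, while motif shares rest on the intervals of replicate 1, and percentiles of the mean count on both libraries. Of 7 marker genes of hippocampal excitatory neurons, 7 had a promoter peak in replicate 1, with summed values of 14.9. The library labelled male replicate 2 had one at 6, with a sum of 11.1, Neurod2 itself being without. Of 4 markers of inhibitory neurons 3 had one in replicate 1 and 1 in replicate 2, with summed values of 2.61 and 1.35. Gad1 had 1.29 in replicate 1 and 1.35 in replicate 2, and Lhx6 had none in either library. For astrocytes it was 2 of 4 in each library, with sums of 2.78 and 2.57, and for oligodendrocytes 2 of 4 and 1 of 4, with sums of 2.25 and 0.973. Among 4 microglial markers Csf1r alone had a promoter peak, in replicate 1 (0.862), and Cx3cr1, Tmem119 and C1qa had none. For endothelial cells it was 1 of 4 in replicate 1 and 2 of 4 in replicate 2, with sums of 0.728 and 1.02. Flt1 had 0.728 in replicate 1 and 0.490 in replicate 2, and Pecam1 had 0.529 in replicate 2 only. Cldn5 and Ly6c1 had none. Of markers of neighbouring regions, 3 of 3 thalamic genes had a promoter peak in replicate 1 and 2 of 3 in replicate 2. Their summed values were 3.59 in replicate 1 and 2.08 in replicate 2. Of striatal genes 3 of 3 had a promoter peak in both, with sums of 4.07 in replicate 1 and 3.75 in replicate 2. Such sums rise with the number of genes in a list, so lists of unlike length cannot be compared by them. Over all protein-coding genes 65.7% had a promoter peak in replicate 1 and 64.5% in replicate 2. Marker counts near these shares do not by themselves show that a cell type or region is present. What part these other cell types have in the values below was not tested.

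Of the 10 genes, 9 had a promoter peak shared by both libraries, where 62.7% of all protein-coding genes did. Taken singly, 10 had one in replicate 1, where 65.7% of all genes did, and 9 in replicate 2, where 64.5% did. The promoters were open but weak. The strongest promoter peak of a gene had a median of 1.56 over the 10 genes in replicate 1, against 2.17 over the 14288 genes with a promoter peak there. In replicate 2 the median was 1.01 over 9 genes, against 2.08 over 14033 genes. All 10 genes in replicate 1 and all 9 with a promoter peak in replicate 2 lay under the median of all genes. The windows held many distal peaks. A distal peak was present in all 10 windows in replicate 1, where 83.3% of all windows held one, and in all 10 in replicate 2, where 82.7% did. A shared one was present in 9 of 10, where 75.1% of all windows held one. With the shorter peak list that the authors deposited for each library, 6 of the 10 genes had a shared promoter peak, against 57.1% of all genes, and the mean number of distal peaks over all windows was 40.5 instead of 90.5. A window held a median of 10 distal peaks in replicate 1, against 3 over all genes, and 8 in replicate 2, against 3. By the mean count of both libraries, 8 of the 10 genes lay above 6 peaks, the 75th percentile of all genes, Bhlhe22 lay at 6 and Eomes at 3, the median of all genes. Taken singly, 8 of the 10 lay above the 75th percentile in replicate 1, all but Neurod6 and Eomes, and 7 in replicate 2, all but Bhlhe22, Neurog2 and Eomes.

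**Figure D1:**
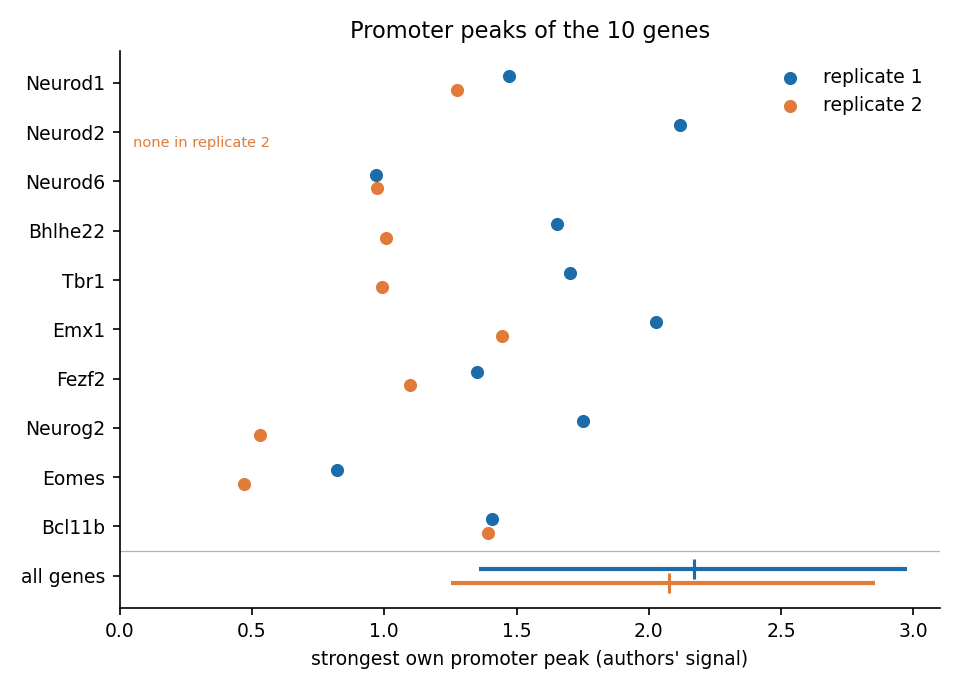
Strongest promoter peak of each of the 10 genes (authors' signal, horizontal axis) in replicate 1 (blue) and replicate 2 (orange), above the median (tick) and quartiles (bar) of all genes with a promoter peak. All points of the 10 genes lie left of the median of all genes of their library, and Neurod2 has no point for replicate 2.

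In 7 of the 10 genes in replicate 1 the strongest distal peak of the window was higher than the strongest promoter peak, where this held for 25.4% of all genes with a promoter peak. In replicate 2 it held for 5 of 9 genes, and for 28.1% of all genes. Neurod1, Neurod6, Eomes and Bcl11b were so in both libraries. The remaining gene in replicate 2 was Neurog2, by an exon peak that counted as distal there and as a promoter peak in replicate 1. A window with more distal peaks has more chances to hold a high one, so this count is not independent of the number of distal peaks. It was drawn up after the peak values had been seen. The same holds for the count of genes with 3 or more promoter peaks, which was 6 of 10 in replicate 1, where 20% of all genes had as many, and 3 of 10 in replicate 2, where 17.9% had.

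**Figure D2:**
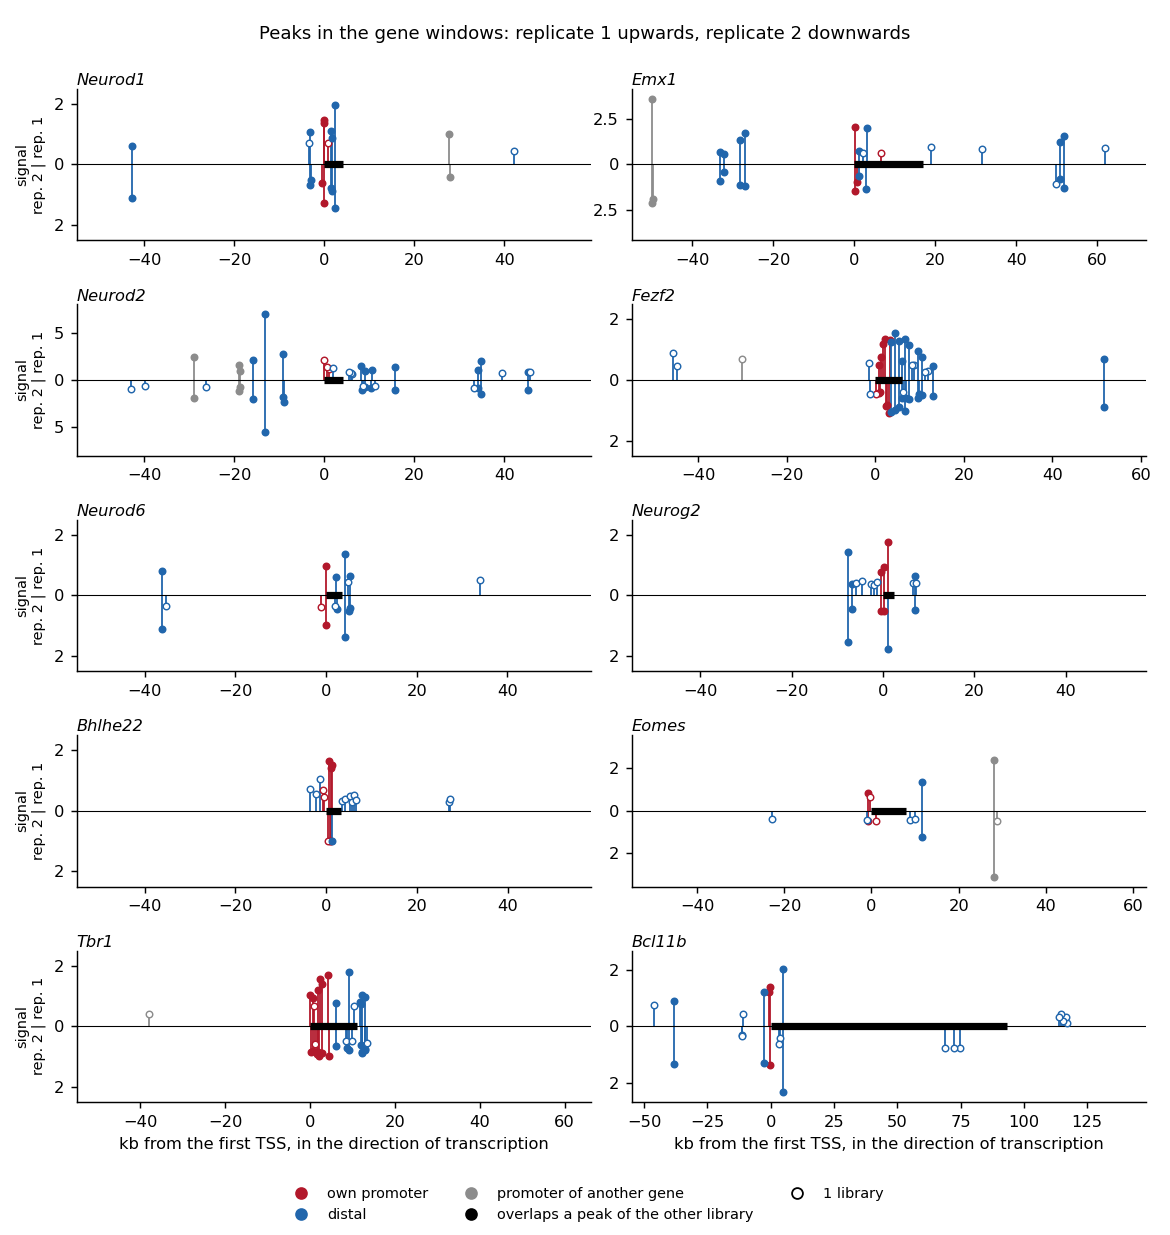
Peaks in the 10 windows by distance from the first TSS (kb, horizontal axis), with the value in replicate 1 drawn upwards and in replicate 2 downwards (authors' signal, own scale in each panel). The thick bar is the gene body, filled circles are peaks that overlap any peak of the other library and open circles are found in 1 library; Fezf2 and Tbr1 have peaks at many places along the gene body, whereas the peaks of Neurod2 spread over the whole window.

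Neurod2, a bHLH factor of mature cortical and hippocampal excitatory neurons, had the strongest distal peak of all 10 windows. At -13.1 kb, between genes (chr11:98342661-98342900, mm10), a peak had a value of 7.02 in replicate 1 and 5.60 in replicate 2, the 99.98th and the 99.93rd percentile of all distal peaks of the library. The lowest FDR in it was 1.01e-36 in replicate 1 and 3.15e-10 in replicate 2, and it held 6 footprints in replicate 1 and 4 in replicate 2. Both libraries gave this peak the same borders, and the nearest TSS of a coding gene was that of Ppp1r1b, which encodes the dopamine-regulated phosphatase inhibitor DARPP-32. Further peaks followed on the same side, at -9.05 kb with 2.76 and 2.32 and at -15.8 kb with 2.15 and 2.08 in replicates 1 and 2. The sequence of the strongest peak is shown because 1 of its shared footprints holds the core of the site of CTCF, the zinc finger protein found at chromatin loop anchors and domain borders. It is the reference sequence (GRCm38.p6), read on the strand of Neurod2, with the CTCF core in capitals. The second sequence is the footprint of the -15.8 kb peak with 4 bases on each side (chr11:98345431-98345474), likewise with its CTCF core in capitals.
Neurod2 peak at -13.1 kb: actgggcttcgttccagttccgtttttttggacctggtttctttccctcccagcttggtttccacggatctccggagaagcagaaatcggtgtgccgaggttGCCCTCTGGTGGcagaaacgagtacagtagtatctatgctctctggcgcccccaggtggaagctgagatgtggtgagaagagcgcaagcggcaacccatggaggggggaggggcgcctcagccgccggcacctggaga
Neurod2 footprint at -15.8 kb: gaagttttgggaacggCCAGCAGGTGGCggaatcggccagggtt
The 2 cores stand in opposite orientation relative to Neurod2, since the motif reads CCA, AG and GGC, each spaced by 2 bases, on the strand printed at -15.8 kb and on the other strand at -13.1 kb.

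The Neurod2 promoter was the one of the 10 without a peak in one of the libraries. Replicate 1 had 3 promoter peaks, the strongest at 2.12, while the library labelled male replicate 2 had none. Within 1 kb of the TSS, 562 of 2001 bases had an FDR under 0.05 in replicate 1, against 7 bases in replicate 2, whose lowest FDR was 0.0493. Footprints numbered 5 in replicate 1 and 0 in replicate 2. The coding exon of Neurod2 showed the same split, with a peak of 1.26 at 1.93 kb in replicate 1 and no base under the FDR limit in replicate 2. That peak was the strongest distal peak of the 10 windows found in replicate 1 alone. The distal peaks of Neurod2 were nevertheless as many in replicate 2 as in replicate 1, 17 and 16. The promoter sequence of Neurod2 (RefSeq table, GRCm38.p6, the 250 bases before the start at chr11:98329646-98329895, minus strand) is printed because it is the promoter seen in 1 library only, with its E-boxes (CANNTG, either strand) in capitals.
Neurod2 promoter: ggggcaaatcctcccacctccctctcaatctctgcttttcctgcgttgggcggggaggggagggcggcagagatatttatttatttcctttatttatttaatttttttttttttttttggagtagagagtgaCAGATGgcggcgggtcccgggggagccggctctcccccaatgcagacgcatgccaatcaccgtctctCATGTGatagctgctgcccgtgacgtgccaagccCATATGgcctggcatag
Among the 9 genes matched in the RefSeq promoter table it was the only one with an E-box of the NeuroD type (CAGATG or CAGCTG, either strand), a motif in 25.5% of all 32851 promoters. An E-box of any kind was present in 5 of the 9, and in 66.2% of all promoters.

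Neurod6, a close relative of Neurod2 in the same neurons, had the promoter with the smallest difference between libraries. Its strongest promoter peak had 0.968 in replicate 1 and 0.973 in replicate 2, the 15.3rd and the 17.5th percentile of the strongest promoter peaks of all genes. Downstream of the gene, at 4.30 kb, a distal peak had 1.36 in both libraries and exceeded the promoter in each. Distal peaks numbered 6 in replicate 1 and 7 in replicate 2, the 78.5th percentile by the mean. A pair of short footprints in the 5′ untranslated exon of Neurod6 were found in both libraries. The first, centred 0.053 kb from the TSS, holds an E-box of the NeuroD type, and the second, at 0.112 kb, covers all but the last base of a cAMP response element (CRE, TGACGTCA), the site of CREB-family factors. They are shown with 4 flanking bases on each side and these motifs in capitals, on the strand of Neurod6, followed by the footprint of the distal peak at -36.2 kb with its CTCF core in capitals.
Neurod6 E-box footprint (chr6:55681201-55681219): cagggatgcCAGATGatca
Neurod6 CRE footprint (chr6:55681141-55681161): ctctgccctgTGACGTCActa
Neurod6 footprint at -36.2 kb (chr6:55717402-55717447): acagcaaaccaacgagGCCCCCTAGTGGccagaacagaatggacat
The E-box footprint lay in the promoter peak of both libraries, the CRE footprint in that of replicate 2 only, just outside the peak of replicate 1. The peak around the footprint at -36.2 kb had 0.813 in replicate 1 and 1.12 in replicate 2. Of the 77 overlapping pairs of footprints over all windows, 1 touched a CRE.

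Neurod1, which drives the differentiation of granule neurons in the dentate gyrus, was most open over its coding exon. A peak at 2.43 kb (chr2:79453921-79454720) had 1.95 in replicate 1 and 1.44 in replicate 2, and the strongest promoter peak had 1.47 and 1.28. The lowest FDR in the exon peak was 7.34e-12 in replicate 1 and 3.61e-07 in replicate 2. The peak held 11 footprints in replicate 1 and 1 in replicate 2, where it was narrower. The promoter is not that of Neurod1 alone, as an annotated transcript of Cerkl starts beside it and the annotated gene Gm26755 overlaps it on the other strand. A peak at -42.8 kb had 0.622 in replicate 1 and 1.10 in replicate 2. It was the shared pair of the windows with the largest excess in replicate 2, with a log2 ratio of replicate 1 to replicate 2 of -0.82. Distal peaks numbered 7 in replicate 1 and 6 in replicate 2.

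Bhlhe22, a bHLH repressor of the Olig family that is active in young projection neurons, showed the widest gap between libraries in the number of distal peaks. Replicate 1 had 11 distal peaks and the library labelled male replicate 2 had 1. The single distal peak of replicate 2, at 1.31 kb, overlapped a peak that counts as a promoter peak in replicate 1. Bhlhe22 was therefore the only one of the 10 genes without a shared distal peak. The distal peaks of replicate 1 had values between 0.297 and 1.07, and none of them covered a base under the FDR limit in replicate 2. The gene start itself was open in both libraries, to a lesser extent in replicate 2. Within 1 kb of the TSS, 1867 of 2001 bases had an FDR under 0.05 in replicate 1 and 1077 in replicate 2, with a lowest FDR of 1.72e-10 and of 0.00134. A run of such bases at the TSS was 2244 bp long in replicate 1 and 1650 bp in replicate 2. The strongest promoter peak by the mean of both libraries, at 0.617 kb, had 1.65 in replicate 1 and 0.980 in replicate 2. A separate peak with 1.01 was the highest at the promoter in replicate 2.

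Neurog2, the proneural factor that starts the cascade in progenitors, had an open site in its coding exon and one upstream. The exon peak, about 1 kb from the TSS, had 1.75 in replicate 1 (at 1.05 kb) and 1.78 in replicate 2. It is a promoter peak in replicate 1 by its border, and a distal one in replicate 2, whose narrower peak began just outside the stretch of 1 kb. For this reason the strongest promoter value of Neurog2 in replicate 2 was only 0.529. The lowest FDR in the exon peak was 8.25e-14 in replicate 1 and 5.62e-14 in replicate 2. The upstream peak at -7.65 kb (chr3:127625381-127625580) had 1.44 in replicate 1 and 1.53 in replicate 2. Both sites were therefore alike in the libraries, while the weaker peaks around them were not: distal peaks numbered 10 in replicate 1 and 4 in replicate 2, and 3 of those of replicate 1 were shared.

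Eomes, the T-box factor of intermediate progenitors, had the lowest promoter value of the 10 genes in replicate 1 and the lowest of the 9 with a promoter peak in replicate 2. Its strongest promoter peak had 0.820 in replicate 1 and 0.471 in replicate 2, the 11.7th and the 3.79th percentile of all genes with one. Its promoter peaks held 2 footprints in replicate 1 and 1 in replicate 2. Distal peaks numbered 1 in replicate 1 and 5 in replicate 2. The only shared one, at 11.6 kb and so past the 3′ end of the gene (chr9:118489701-118489900), had 1.38 in replicate 1 and 1.25 in replicate 2 and exceeded the promoter in both. It held overlapping footprints of both libraries over a sequence in which a CTCF core and an E-box of the NeuroD type share bases, so the 2 motifs cannot be read as separate. The longer footprint is given on the strand of Eomes, with 4 flanking bases on each side and the CTCF core in capitals.
Eomes footprint at 11.6 kb (chr9:118489844-118489874): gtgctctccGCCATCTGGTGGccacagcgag

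Tbr1, the T-box factor that follows Eomes in young neurons, was open at many places along the gene. Replicate 1 had 7 promoter and 7 distal peaks, and replicate 2 had 8 promoter and 11 distal peaks, over promoter stretches of 4 annotated TSS. Some of these peaks lie inside longer ones of the same list and were counted as listed. The strongest promoter peak by the mean of both libraries, in an intron at 4.33 kb, had 1.70 in replicate 1 and 0.986 in replicate 2. The coding exon at 9.12 kb held a peak of 1.79 in replicate 1, and of 0.786 in replicate 2, where it was narrower. A run of bases under the FDR limit, over the second annotated TSS, was 1608 bp long in replicate 1 and 1640 bp in replicate 2. Of the window, 5.89% of bases were under the FDR limit in replicate 1 and 5.46% in replicate 2, the 88.1st and the 91.9th percentile of all genes.

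Fezf2, the zinc finger factor of subcerebral projection neurons, had the longest open run. Bases under the FDR limit ran on for 3301 bp in replicate 1 and for 3475 bp in replicate 2, inside the gene and over 2 of its 3 annotated TSS. Of the window, 9.90% of bases were under the limit in replicate 1 and 7.45% in replicate 2, the 96.7th and the 97.2nd percentile of all genes. The highest promoter value of each library, from peaks at different places, was 1.35 in replicate 1 and 1.10 in replicate 2, the 24.9th and the 20.7th percentile. The strongest promoter peak by the mean of both, in a coding exon at 3.32 kb, had 1.32 in replicate 1 and 1.10 in replicate 2. Fezf2 was thus open over a long stretch at moderate height. Distal peaks numbered 17 in replicate 1 and 14 in replicate 2, of which 10 and 11 were shared. The strongest shared one lay in an intron at 4.39 kb and had 1.54 in replicate 1 and 0.999 in replicate 2.

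Emx1, the homeodomain factor that marks the dorsal telencephalon, had the second highest promoter value of the 10 in replicate 1 and the highest in replicate 2. Its strongest promoter peak had 2.03 in replicate 1 and 1.44 in replicate 2. The strongest shared distal peak, in an intron at 3.13 kb, was nearly as high, with 1.98 in replicate 1 and 1.35 in replicate 2. Upstream, peaks at -28.1 kb with 1.31 and 1.13 and at -27.0 kb with 1.73 and 1.20, in replicates 1 and 2, each held a footprint of both libraries over a CTCF core. For both peaks the nearest TSS of a coding gene was that of Spr. The footprints are shown on the strand of Emx1, with 4 flanking bases on each side and the CTCF core in capitals.
Emx1 footprint at -28.1 kb (chr6:85159292-85159328): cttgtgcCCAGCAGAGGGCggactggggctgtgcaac
Emx1 footprint at -27.0 kb (chr6:85160374-85160418): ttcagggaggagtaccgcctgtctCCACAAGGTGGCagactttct
Both cores read in the direction of Emx1. The strongest distal peak of the 10 windows found in replicate 2 alone also lay near Emx1, in an intron of the neighbouring gene Sfxn5 at 49.8 kb, with a value of 1.07. The promoter run of bases under the FDR limit was 1879 bp in replicate 1 and 863 bp in replicate 2.

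Bcl11b, a zinc finger factor of corticospinal and hippocampal neurons also known as Ctip2, was the one gene with all of its shared distal peaks higher in replicate 2. It had 3 such pairs, with a median log2 ratio of replicate 1 to replicate 2 of -0.19. The strongest, in an intron at 4.67 kb (chr12:107998841-107999020), had 2.05 in replicate 1 and 2.34 in replicate 2, the 97.4th and the 97.7th percentile of distal peaks. The strongest promoter peak had 1.41 in replicate 1 and 1.39 in replicate 2, with a lowest FDR of 0.0277 and of 0.00102. The gene is 93200 bp long, and its window had a low density of open bases, 1.79% in replicate 1 and 1.38% in replicate 2, although its 10 distal peaks in each library placed it at the 90.1st percentile of the counts. Beyond the gene, 5 peaks of replicate 1 with values of at most 0.424 had no counterpart in replicate 2. Their lowest FDR lay between 2.95e-17 and 0.000962, so they were low in value but not marginal by FDR. A peak at -38.2 kb, with 0.904 in replicate 1 and 1.33 in replicate 2, held a footprint of both libraries over a CTCF core, shown in capitals on the strand of Bcl11b.
Bcl11b footprint at -38.2 kb (chr12:108041738-108041776): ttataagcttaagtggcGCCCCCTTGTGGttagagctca

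**Figure D3:**
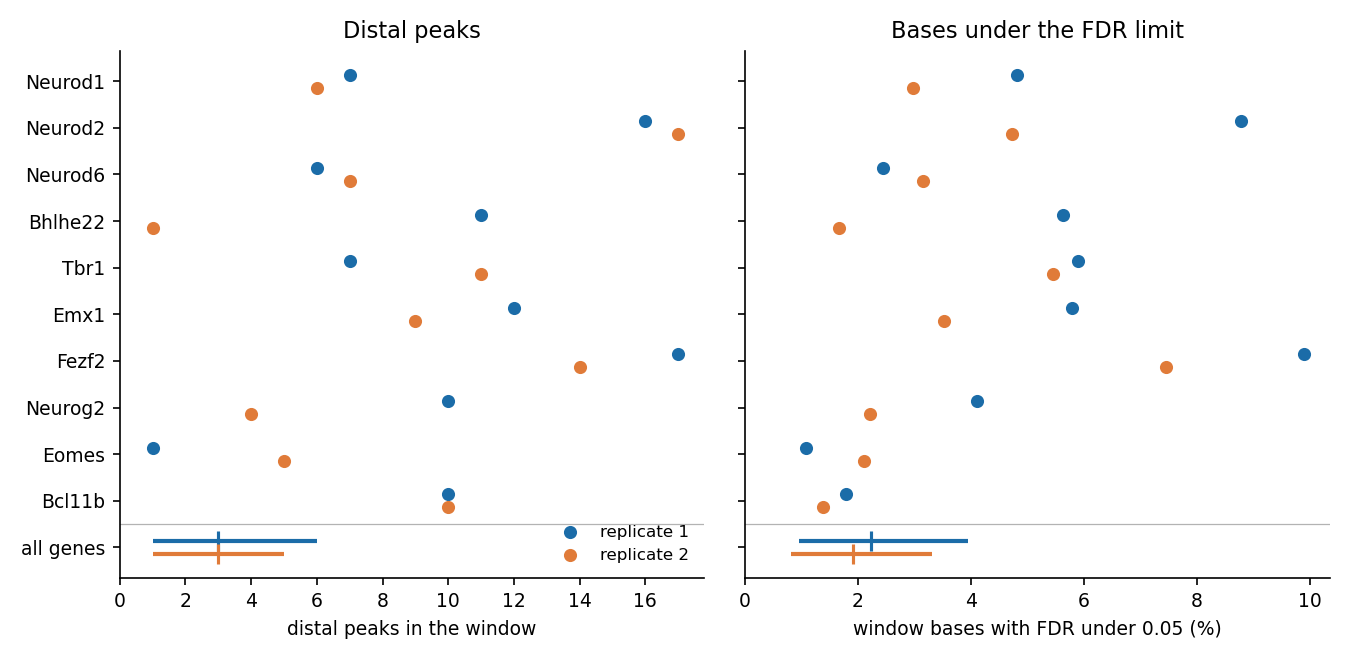
Distal peaks in the window (left, number) and share of window bases with an FDR under 0.05 (right, percent) for the 10 genes in replicate 1 (blue) and replicate 2 (orange), above the median (tick) and quartiles (bar) of all genes. Neurod2 and Fezf2 have 14 to 17 distal peaks in each library, and Bhlhe22 has 11 in replicate 1 and 1 in replicate 2.

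Counted over all windows, there were 138 peaks in replicate 1 and 120 in replicate 2. Of these 33 and 28 were promoter peaks of the 10 genes, 97 and 84 were distal, and 8 in each library were promoter peaks of other genes. Distal peaks averaged 90.5 ± 9.19 (SD, n = 2 libraries). Of the distal peaks 56 in replicate 1 and 52 in replicate 2 lay in the gene or within 5 kb of it. Their median value was 0.721 in replicate 1, against 0.551 over all distal peaks, and 0.770 in replicate 2, against 0.548. Promoter peaks had a median of 1.22 in replicate 1, against 1.21 over all promoter peaks, and 0.867 in replicate 2, against 1.07. The medians of the 10 windows were thus above those of distal peaks in general in each library, while the promoter median was close to that of all promoter peaks in replicate 1 and below it in replicate 2.

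A distal peak of these windows was found again in the other library as often as any distal peak. In replicate 1, 51.5% of the 97 were shared (95% Clopper-Pearson interval 41.2 to 61.8%), against 51.3% of all distal peaks. In replicate 2 it was 67.9% of 84 (56.8 to 77.6%), against 64.2%. The intervals cover counting error only. Of the promoter peaks 72.7% were shared in replicate 1, against 78.0% of all, and 82.1% in replicate 2, against 85.0%. Between shared peaks that matched 1 to 1, replicate 1 tended to be higher. Among 11 promoter pairs of the 10 genes 10 were higher in replicate 1, with a median log2 ratio of 0.58, against 0.14 over all 15749 promoter pairs, of which 68.1% were higher. Among 38 distal pairs 27 were higher, with a median of 0.27, against 0.09 over all 29044. The pairs of 1 gene share their surroundings and are not replicates.

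Runs of at least 1 kb under the FDR limit at a TSS, a length chosen after the runs had been seen, were present in both libraries at 3 of the 10 genes, Bhlhe22, Tbr1 and Fezf2, where 25.1% of all genes had one. Replicate 1 had 5 such genes, with Emx1 and Neurog2 added, and 33.6% of all genes, and replicate 2 had 3, and 26.7% of all genes. The count of long runs at the promoters was thus near that of genes in general. The share of the whole window under the limit was higher, with a median of 5.22% over the 10 genes in replicate 1, against 2.23% over all genes, and of 3.07% in replicate 2, against 1.90%. For each library 8 of the 10 genes lay above the median of all genes.

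Footprints in distal peaks of the windows numbered 232 in replicate 1 and 135 in replicate 2. Per kb of distal peak this was 8.30 in replicate 1, against 7.11 over all distal peaks, and 7.35 in replicate 2, against 7.56. The order relative to all peaks thus differed between the libraries. Promoter peaks held a footprint in 10 of the 10 genes in replicate 1, where 63.8% of all genes had one, and in 9 in replicate 2, where 62.6% had. In both libraries it was 9 of 10, against 60.9%, Neurod2 being without. The footprints of the libraries need not overlap for this count, and those in the promoter peaks of Eomes did not. Pairs of footprints that overlapped between the libraries numbered 77, from 4 at Eomes to 13 at Emx1, and a footprint that met 2 of the other library counts in 2 pairs.

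The 50 shared distal peaks of replicate 1 were searched for 13 motifs on both strands and compared with all 32971 shared distal peaks. They had a median width of 284 bp and 55.9% G and C, against 220 bp and 52.7% over all, so a longer sequence was searched. E-boxes of the NeuroD type, the kind that NeuroD and Neurogenin proteins bind, were no more frequent than elsewhere. They were in 42% of the peaks (95% interval 28.2 to 56.8%), against 43.2% of all, and within the fixed central 150 bp in 22%, against 31.1%. Any E-box was in 82%, against 74.8%, but the order turned within the fixed 150 bp, with 58%, against 63.9%. The GC box (GGGCGG), the site of Sp and KLF factors, was in 28% (16.2 to 42.5%), against 12.96%. Within the fixed 150 bp it was in 20% of the peaks, against 8.22%, but among the 24 peaks of middling width it was in 3, against 15.4% of all peaks of that width. The short T-box core GGTGTGA was in 10% (3.33 to 21.8%), against 3.81%, and within the fixed 150 bp in 4%, against 2.21%. The longer core AGGTGTGA was in 2%, against 0.974%, and within the fixed 150 bp in 2%, against 0.564%. The homeodomain core TAATTA was in 6%, against 3.58%, but within the fixed 150 bp in 2%, against 1.93%. For MEF2 (CTA and TAG spaced by 5 bases) it was 4%, against 2.46%, and for EGR (GCGGGGGCG) 2%, against 0.601%. Within the fixed 150 bp MEF2 stood at 2%, against 1.29%, and EGR at 0%, against 0.255%. AP-1 (TGANTCA) was in 10%, against 8.27%, but within the fixed 150 bp in 2%, against 4.95%. The CRE and the paired NFI and RFX sites (TTGGC and GCCAA spaced by 5 bases, GTTGCC and GGCAAC spaced by 2 or GTTGCC followed by ATGG) were in none, which allows up to 7.11% by the same interval, against 0.497%, 0.094% and 0.913% of all. Motifs overlap each other in part, as the NeuroD type is a kind of E-box.

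The CTCF core was added to the search after the peak values had been seen. It was in 20% of the shared distal peaks of the windows (10.03 to 33.7%), against 14.6% of all. Within the fixed 150 bp it was in 18% of these peaks, against 12.1%. In windows with 10 kb on each side of the gene it was in 3 of 34 shared distal peaks, or 8.82%. Among footprints it was no more frequent than elsewhere. Of the footprints in distal peaks, 2.59% of 232 held the core in replicate 1, against 3.73% of all such footprints. In replicate 2 it was 5.93% of 135, against 6.12%. A division by distance, at 5 kb, was also made afterwards. The core was in 7 of the 21 shared distal peaks farther from the gene and in 3 of the 29 nearer ones. The 7 far peaks belonged to Neurod2, Neurod6, Emx1 and Bcl11b, and in 6 of them the core lay in a footprint found in both libraries, whose sequences are printed above. E-boxes of the NeuroD type were in 7 of the 21 far and 14 of the 29 near peaks. The peaks of other genes were not divided by distance. Whether far and near peaks in general differ in the same way was therefore not tested. A motif match describes the sequence and does not show that the factor is bound.

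**Figure D4:**
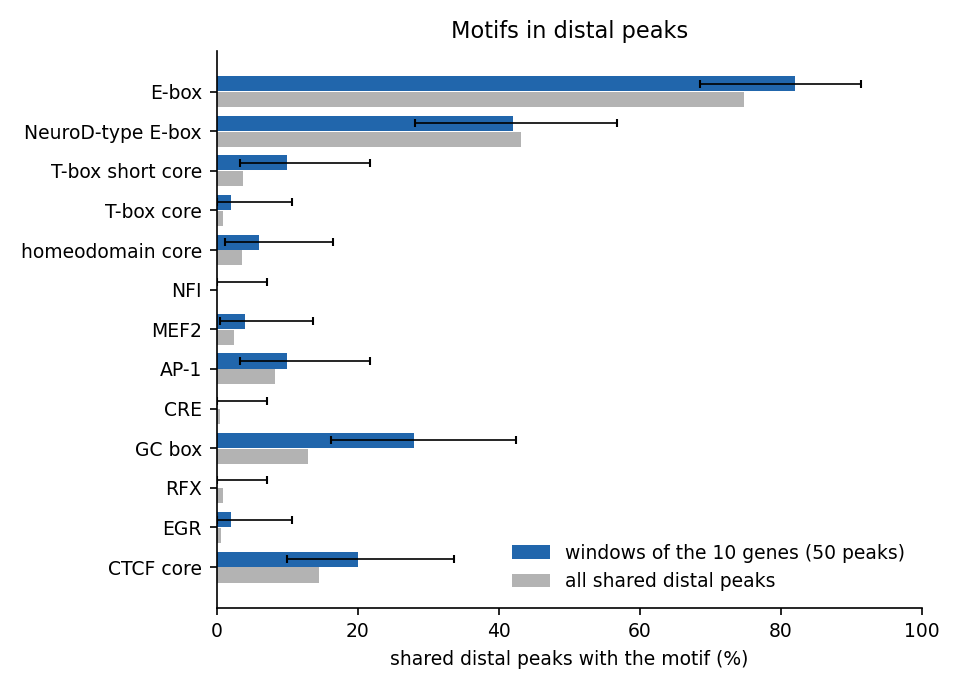
Share of shared distal peaks with each of 13 motifs (percent, horizontal axis) in the windows of the 10 genes (blue, 50 peaks, with 95% Clopper-Pearson intervals) and over all shared distal peaks (grey). E-boxes of the NeuroD type stand at 42% and 43.2%, and GC boxes at 28% and 12.96%.

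Other genes of the same pathways gave a range of values, set beside the 9 of 10 genes with a shared promoter peak and their median distal percentile of 84.4. Over all protein-coding genes 62.7% had a shared promoter peak. The E-proteins and ID inhibitors (Tcf3, Tcf4, Tcf12 and Id1 to Id4), partners and blockers of bHLH factors, had one in 7 of 7, with a median percentile of 90.1. Of 20 other transcription factors of cortical and hippocampal excitatory neurons 20 had one, with a median percentile of 89.0. Their promoters were of similar or greater height, with a median strongest value of 1.76 in replicate 1 and 1.51 in replicate 2. Zbtb20, needed for hippocampal identity, had 3.92 in replicate 1 and 3.13 in replicate 2. Of 16 paralogues and bHLH relatives 9 had a shared promoter peak, and 6, among them Neurod4 and Neurog3, had none in either library. Emx2, the paralogue of Emx1, had 2.32 in replicate 1 and 1.98 in replicate 2.

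Transcription factors of inhibitory neurons had a shared promoter peak in 9 of 18 genes, where 62.7% of all genes had one. Taken singly, 16 had one in replicate 1, where 65.7% of all genes did. In replicate 2, labelled male, 10 had one, where 64.5% of all genes did. Their median distal percentile was 73.9, and the median strongest promoter value was 0.915 in replicate 1 and 0.799 in replicate 2. Dlx5, a homeodomain factor of forebrain interneurons, had 14 distal peaks in replicate 1 and 0 in replicate 2, a gap of the kind seen at Bhlhe22. Such gaps occurred in the other lists too. In replicates 1 and 2 Pax6 had 11 and 1 and Bcl11a 49 and 10, while Tcf4 went the other way with 35 and 93. Whether these lists differ from the 10 genes was not tested.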

How the data were processed

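DNase-seq of 2 libraries of 1 group was analysed, numbered as in the labels. Per the labels and the file descriptions, mm10 was the assembly, and the authors made peaks, footprints and FDR runs from the alignments of each library, with no pooling. Aligner, callers, versions and filters were not stated. The deposited peak value is a signal, coverage-like and of unstated scale, so depth is unknown. The deposited p-value type column is an FDR per run of bases, listed under 0.05. The deposited footprint lists carry another column with a constant value, which was not used. The longer peak list was the main one.

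GENCODE M21 gave genes and TSS, and GRCm38.p6, the same build as mm10, gave sequence. Overlaps, percentiles and motif searches were made in Python 3.11.15 (numpy 2.4.6, pandas 2.3.3, pysam 0.24.0, scipy 1.17.1), with figures by matplotlib 3.10.9. The interval code was tested on simulated data and against bedtools 2.31.1. A footprint was counted in a peak, and footprints as found in both libraries, when they overlapped by at least 1 bp. Percentiles rank a gene among all protein-coding genes, and a peak among those of its kind in its library. Peaks of a list that lie inside others were counted as listed. For each gene the text names the strongest promoter peak and the strongest shared distal peak by the mean of both libraries; percentiles, medians and the plot of promoter peaks use the highest promoter value of each library. Over all windows it names the strongest distal peak of each library alone. No condition was compared and no test was run. The genes and lists were chosen with earlier results of these data known.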

Additional observations from a re-analysis of the deposited data

How the results depend on the processing

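No paired analysis was possible because the series holds 1 group. Over the alternatives, 48 summary values stayed within the spread of the libraries or within 1.5 times a count and 19 moved, and of the values of single genes 39 stayed and 31 moved. With the shorter deposited peak list the mean number of distal peaks was 40.5 instead of 90.5, the footprints in them 102.5 instead of 183.5, and the genes with a shared promoter peak 6 of 10, against 57.1% of all genes, without Neurod2, Bhlhe22, Eomes and Bcl11b. Over the gene body alone there were 20 distal peaks. Counting only peaks whose nearest coding TSS was that of the gene moved 3 genes. The mean distal count was then 8.5 instead of 16.5 at Neurod2, 3.5 instead of 10.5 at Emx1 and 3 instead of 6.5 at Neurod1. With a reciprocal overlap of 50% the mean share of distal peaks found in both libraries was 36.1% instead of 59.7%. The median distal percentile, 84.4, was 78.6 with the shorter list, 81.8 over the gene body, 89.9 with 10 kb on each side, 85.5 with promoters of 2.5 kb, 86.0 without dense runs of peaks, 93.0 by nearest coding TSS, 85.3 with the TSS of any gene left out, 89.6 per 100 kb, and 87.6 to 87.7 without either replicate. The median share of bases under the FDR limit, 3.77%, was 1.54% at an FDR of 0.001, 13.1% with 10 kb on each side and 31.3% over the gene body. E-boxes of the NeuroD type were in 22% of peaks within a fixed 150 bp, against 31.1% of all, and the CTCF core was in 8.82% with 10 kb on each side. The causes were not tested. With an unknown number of cuts, a peak missing from a library cannot be told from one below its limit of detection.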
